A study of Mus musculus with 4 samples.

Results

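A set of 9 genes linked to recent thymic emigrants, that is, to newly made T cells, was followed by symbol among the 31053 genes of the deposited matrices: Sox4, Itm2a, Igfbp4, Tsc22d1, Ampd1, Dtx1, Myb, Actn1 and Drosha. The 9 genes were selected on expression values of these same libraries, so their levels are given here as a description and no test was made on them. CD4 T cells had been taken from C57BL/6 mouse lungs, either 3 weeks after TC1 tumor cells were injected into the tail vein or from normal mice of matched age that received no such injection. Lungs were perfused and digested, lymphocytes were collected on a Percoll gradient and with a CD4 enrichment kit, and live CD4+ cells were sorted. TC1 is a transplantable mouse tumor line, so the lung tumors came from injected cells. Each tissue gave 1 droplet library of 5' RNA ends and 1 T cell receptor (TCR) library, and the number of mice behind either suspension is not given in the sources used here.

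A recent thymic emigrant is a T cell that has just left the thymus and entered the periphery, where it goes on maturing into a naive T cell. Such cells keep for a while some transcripts of the thymocyte stages, among them those of developmental transcription factors, and lose them as they mature or when antigen activates them. Naive T cells are marked by Ccr7, a chemokine receptor that guides them to lymphoid organs, while Foxp3 marks regulatory T cells. Cells were therefore split into 3 classes by their own UMIs (unique molecular identifiers, each standing for 1 captured RNA molecule): Foxp3-negative Ccr7-positive cells with no Foxp3 and at least 1 Ccr7 UMI, Foxp3-negative Ccr7-negative cells with neither, and Foxp3-positive cells with at least 1 Foxp3 UMI.

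After filtering, 7135 cells of the tumor lung and 7082 of the normal lung were kept. The Ccr7-positive class held 4849 and 6194 cells, the Ccr7-negative class 1139 and 682, and the Foxp3-positive class 1147 and 206, in the tumor and the normal lung. Median depth per class lay between 3528.5 and 4725 UMIs per cell. A reference class that should lack naive-cell genes was made of the Ccr7-negative cells with at least 2 UMIs of Ccl5 and Nkg7 together, 160 cells in the tumor lung and 201 in the normal lung. The 2 libraries shared 86 cell barcodes. With 1 library per tissue, the effect of the tumor, the mice and the library preparation cannot be told apart, and the 95% intervals given below cover counting error only. UMIs of 1 cell are not independent draws, so these intervals are on the narrow side. Levels are UMIs scaled to 1e+06 UMIs of the class (CPM) and are compared within a gene, not between genes. A gene is counted as higher or lower past a ratio of 1.5, whatever its interval.

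Sox4 and Itm2a were found in the same cells more often than their single shares give in both libraries, while Igfbp4 was found in most Ccr7-positive cells, and the bases upstream of their starts are shown for that contrast. RefSeq promoter entries of assembly GRCm38.p6 were matched for 8 of the 9 genes, with 5 entries for Tsc22d1, and Ampd1 had none. The 250 bases before the start are printed 5′ to 3′ on the gene's strand, with matches in capitals to AACTG (the core letters bound by MYB proteins) and CAGGTG (an E box, bound by E proteins).
Sox4 (chr13:28953700-28953949, minus strand): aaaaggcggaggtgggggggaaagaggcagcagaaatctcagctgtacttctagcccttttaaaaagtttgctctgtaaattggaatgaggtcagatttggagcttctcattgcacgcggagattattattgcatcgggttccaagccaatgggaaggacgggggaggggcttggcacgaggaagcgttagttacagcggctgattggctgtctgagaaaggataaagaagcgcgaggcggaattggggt
Itm2a (chrX:107403361-107403610, minus strand): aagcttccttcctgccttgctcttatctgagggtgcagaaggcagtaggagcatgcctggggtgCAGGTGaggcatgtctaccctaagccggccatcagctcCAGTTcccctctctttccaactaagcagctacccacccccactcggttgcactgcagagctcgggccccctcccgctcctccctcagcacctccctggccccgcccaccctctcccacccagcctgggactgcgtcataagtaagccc
Igfbp4 (chr11:99040994-99041243, plus strand): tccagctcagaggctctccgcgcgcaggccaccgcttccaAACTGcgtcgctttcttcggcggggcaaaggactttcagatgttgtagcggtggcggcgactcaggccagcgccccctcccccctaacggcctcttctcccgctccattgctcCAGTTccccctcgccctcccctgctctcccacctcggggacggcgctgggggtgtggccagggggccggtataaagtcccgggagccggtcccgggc
Both strands were searched for these and for CTTTGT (TCF/LEF and, on the other strand, SOX factors), CTTTGA (TCF/LEF) and TGTGGT (RUNX). AACTG stood in the windows of Itm2a, Igfbp4 and Tsc22d1, and 39.1% of 32851 mouse promoter windows of the same length hold it. CAGGTG stood in that of Itm2a, against 17.2% of all windows. None of the 12 windows held CTTTGT, which 16.5% of all windows hold, while CTTTGA and TGTGGT each stood in 1 Tsc22d1 window, against 13.8% and 14.0%. The Sox4 window held none of the 5 motifs. Its GC content was 50.8%, against 62.8% for Itm2a, 69.2% for Igfbp4 and 81.2% for Myb. A Tsc22d1 window was lower, at 46%, and Dtx1 stood at 56.4%.

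In the Ccr7-positive class, Sox4 and Tsc22d1 were lower in the tumor lung and none of the 9 genes was higher by 1.5-fold. Of 6856 genes with a mean level of at least 10 CPM, 2.89% were higher and 0.904% lower by 1.5-fold. Of the 9 genes, which all passed that minimum, 6 had a ratio below 1 and 3 above it. Their median log2 ratio was -0.14, against 0.02 over all 6856 genes. The plot of levels by class and library shows all 9 genes on their own scales.

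**Figure D1:**
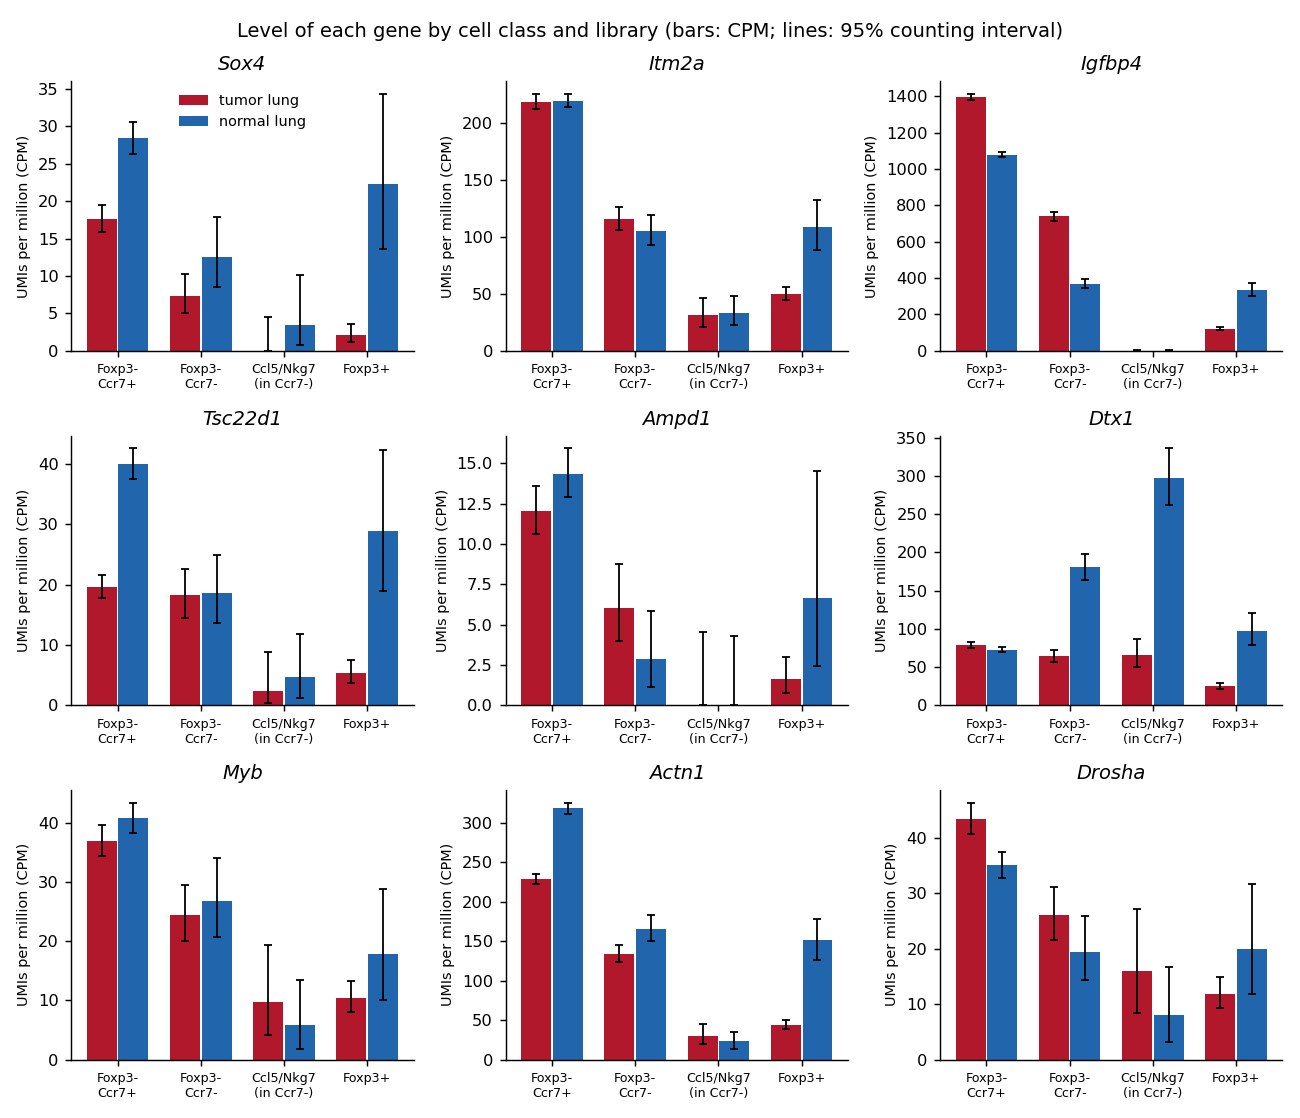
Level of each of the 9 genes in CPM (y axis from 0) in 4 cell classes (x axis) of the tumor lung (red) and the normal lung (blue), with 95% Poisson intervals of the counts and 1 library per bar. Sox4 and Tsc22d1 reached 28.4 and 40.0 CPM in Ccr7-positive cells of the normal lung, and Dtx1 reached 297 CPM in its Ccl5 and Nkg7 cells.

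Among the transcriptional regulators, Sox4, a SoxC family factor active in thymocytes (ENSMUSG00000076431, chromosome 13, 28948919 to 28953699), stood at 17.6 CPM (15.8 to 19.5, from 374 UMIs) in Ccr7-positive cells of the tumor lung and at 28.4 CPM (26.3 to 30.6, from 702 UMIs) in those of the normal lung. The ratio was 0.619 (0.545 to 0.703), and the 2 intervals did not overlap. A Sox4 UMI was found in 5.96% of the Ccr7-positive cells of the tumor lung and in 8.62% of those of the normal lung. With each cell thinned to 2417 UMIs these shares were 3.85% (3.32 to 4.44) and 6.08% (5.47 to 6.73). In the Ccl5 and Nkg7 reference cells, 0 of 160 and 2 of 201 held a Sox4 UMI. Across the 3 classes and 2 libraries, the Sox4 level ran from Ccr7-positive cells of the normal lung through normal Foxp3-positive cells (22.2 CPM), tumor Ccr7-positive cells, normal Ccr7-negative cells (12.6 CPM) and tumor Ccr7-negative cells (7.34 CPM) down to tumor Foxp3-positive cells (2.11 CPM). Only the last 2 neighbours in that order had intervals that did not overlap. Most detection rested on single molecules, since 159 of 180 positive cells in the thinned tumor library and 289 of 342 in the thinned normal library held exactly 1 Sox4 UMI. The other SoxC genes were nearly undetected in the Ccr7-positive class, with 0 Sox11 UMIs in both libraries and 4 and 1 Sox12 UMIs.

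Tsc22d1, a leucine zipper protein first described as induced by TGF-beta (ENSMUSG00000022010, chromosome 14), showed the larger difference, at 19.7 CPM (17.8 to 21.6) in the tumor lung and 40.0 CPM (37.6 to 42.6) in the normal lung, a ratio of 0.491 (0.437 to 0.551). Its 3 relatives stood above 1, with ratios of 1.19 for Tsc22d2, 1.01 for Tsc22d3 and 1.27 for Tsc22d4. Of 9 genes of TGF-beta receptors, Smads and their regulators, none passed 1.5-fold in this class, and the inhibitors Smad7 and Skil stood at 1.42 and 1.48. In the Ccr7-negative class it was at 18.3 CPM in the tumor lung and 18.7 CPM in the normal lung, with overlapping intervals. The tumor lung thus had about the same Tsc22d1 level with and without Ccr7, at a ratio of 1.08 (0.848 to 1.38), while in the normal lung Ccr7-positive cells were 2.14-fold higher (1.59 to 2.95). Myb, which encodes a factor needed at several stages of thymocyte development (ENSMUSG00000019982, chromosome 10), stood at 37.0 and 40.8 CPM in Ccr7-positive cells of the tumor and the normal lung, a ratio of 0.908 (0.826 to 0.997).

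Itm2a, a membrane protein induced in thymocytes during positive selection (ENSMUSG00000031239, chromosome X), had nearly the same level in Ccr7-positive cells of both lungs, 219 CPM (213 to 225) in the tumor lung and 220 CPM (214 to 226) in the normal lung. The ratio was 0.996 (0.958 to 1.04), and a UMI was found in 46.0% and 43.6% of the cells. Its relatives Itm2b and Itm2c had ratios of 0.886 and 1.21. Igfbp4, a secreted protein that binds insulin-like growth factors (ENSMUSG00000017493, chromosome 11), was at 1397 CPM (1381 to 1413) in the tumor lung and 1080 CPM (1067 to 1093) in the normal lung, a ratio of 1.29 (1.27 to 1.32). An Igfbp4 UMI was found in 79.0% and 71.5% of the Ccr7-positive cells, and in 0.625% and 0.498% of the Ccl5 and Nkg7 cells, 1 cell in each library. The other genes of the family were nearly undetected. Igfbp1, Igfbp2, Igfbp3 and Igfbp5 had 0 UMIs in this class of both libraries, Igfbp6 had 2 and 1, and Igfbp7 had 12 in the tumor lung and 0 in the normal lung. The ligands Igf1 and Igf2 were at 0 UMIs in the normal lung, with 0 and 2 in the tumor lung. Of the receptors, Igf1r had 145 and 123 UMIs and Igf2r 604 and 717.

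None of the 3 enzymes passed 1.5-fold. Ampd1, an AMP deaminase best known from muscle (ENSMUSG00000070385, chromosome 3), was at 12.0 CPM in the tumor lung and 14.4 CPM in the normal lung, a ratio of 0.838 (0.711 to 0.987). Dtx1, a Deltex ubiquitin ligase of the Notch pathway (ENSMUSG00000029603, chromosome 5), was at 79.0 and 72.7 CPM, a ratio of 1.09 (1.02 to 1.16). Of 13 Notch pathway genes, 8 passed the minimum level and 2 of these were higher in the tumor lung, the receptor Notch1 at 1.70 and the Deltex relative Dtx3l at 2.05. Drosha, the nuclear ribonuclease that cuts primary microRNA transcripts (ENSMUSG00000022191, chromosome 15), was at 43.4 and 35.1 CPM, a ratio of 1.24 (1.13 to 1.36), while none of the 7 measured genes of microRNA processing passed 1.5-fold, among them Dicer1 at 0.975. Actn1, an alpha-actinin that cross-links actin filaments (ENSMUSG00000015143, chromosome 12), was at 229 CPM (223 to 236) in the tumor lung and 318 CPM (311 to 325) in the normal lung, a ratio of 0.720 (0.695 to 0.747). Its relative Actn4 stood at 1.03.

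Other genes linked to emigrants or thymocytes gave no common direction in the Ccr7-positive class. Of 12 listed, 4 passed the minimum level. Ikzf2 (Helios) was higher in the tumor lung at 1.76 (1.46 to 2.12), and Cd24a, a surface protein that falls as T cells mature, stood at 1.31 (1.10 to 1.55). Tox and Pecam1 stood at 1.12 and 0.959. The recombination genes Rag1 and Rag2 had at most 1 UMI per library, Ptcra had 1 and 10 UMIs, and Dntt, which adds nucleotides to receptor junctions, had 31 and 67. Of 11 genes that go up as naive T cells mature, 1 was higher, Ly6a at 2.39, and 1 lower, Cd55 at 0.624. None of the 11 naive markers passed 1.5-fold. Activation genes also differed in this class, and 5 of 11 measured effector and activation genes were higher in the tumor lung, among them Tnfrsf9 at 7.65 and Pdcd1 at 3.92, and 3 of 8 immediate early genes were higher, Egr1 at 2.20, Nr4a1 at 1.72 and Fosb at 1.55. The part of activation and of tissue handling in the ratios of the 9 genes was not tested beyond 2 restrictions of the class. Among Ccr7-positive cells without a UMI of Ccl5, Nkg7, Icos, Cxcr3, Cxcr6, Il2ra, Tnfrsf9 or Pdcd1, again 0 of the 9 genes were higher and 2 lower, against 2.90% and 1.27% of all genes. Among those without a UMI of Fos or Jun, a choice made after seeing the data, 0 were higher and 3 lower, against 5.38% and 3.75%.

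**Figure D2:**
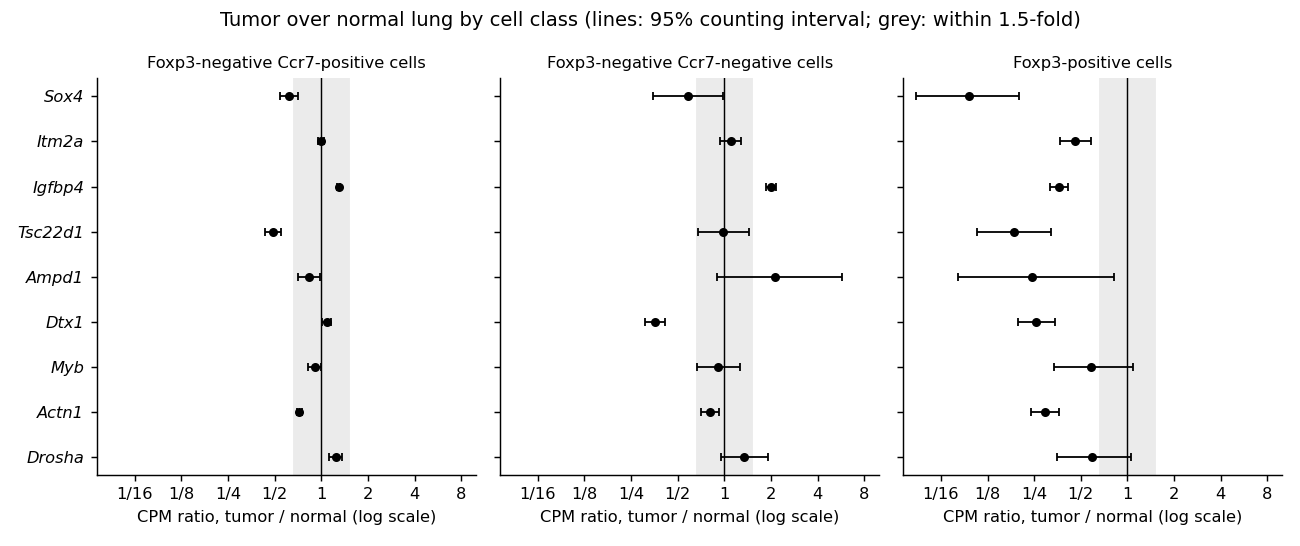
Ratio of CPM in the tumor lung over the normal lung (x axis, log scale) for each gene (y axis) in 3 cell classes, with 95% counting intervals, and a grey band within 1.5-fold. In Foxp3-positive cells the 9 points lie below the band, from 0.0950 for Sox4 to 0.593 for Drosha, while Igfbp4 lies at 1.29 and 2.0 in the other classes.

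In Ccr7-negative Foxp3-negative cells the 9 genes had ratios on both sides of 1, and Igfbp4 and Dtx1 differed most in opposite directions among those with at least 10 CPM on average. In Ccr7-negative Foxp3-negative cells, Igfbp4 was at 740 CPM (715 to 766) in the tumor lung and 370 CPM (346 to 395) in the normal lung, a ratio of 2.0 (1.86 to 2.15). Dtx1 went the other way, at 64.3 CPM (57.1 to 72.2) in the tumor lung and 180 CPM (164 to 198) in the normal lung, a ratio of 0.357 (0.307 to 0.415). Besides these, Ampd1 was past 1.5-fold at 2.11, on 27 and 7 UMIs and with an interval of 0.898 to 5.75 that includes 1, and Sox4 stood at 0.583 (0.346 to 0.985). That made 2 genes higher and 2 lower, where 6.63% of 7230 genes were higher and 5.19% lower, and 7 of the 9 genes passed the minimum level. Itm2a stood at 1.10, Tsc22d1 at 0.977, Myb at 0.913, Actn1 at 0.807 and Drosha at 1.34.

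In the normal lung Dtx1 was the one gene of the 9 with its highest level outside the Ccr7-positive class. In the Ccl5 and Nkg7 cells of the normal lung it was at 297 CPM (262 to 336), with a UMI in 59.2% (52.1 to 66.1) of 201 cells, and in those of the tumor lung at 66.1 CPM (49.7 to 86.3), with a UMI in 17.5% (12.0 to 24.3) of 160 cells. With cells thinned to 2417 UMIs the shares were 42.5% and 7.43%. Without the Ccl5 and Nkg7 cells, a split made after seeing the data, Ccr7-negative cells still differed in Dtx1, with 63.9 CPM in the tumor lung and 117 CPM in the normal lung, a ratio of 0.546 (0.449 to 0.666), and in Igfbp4, with a ratio of 1.59 (1.48 to 1.71). The Ccl5 and Nkg7 cells made up 160 of 1139 Ccr7-negative cells in the tumor lung and 201 of 682 in the normal lung. Nkg7, a cytotoxic granule protein, stood at 0.238 between the tissues in the whole Ccr7-negative class, and Klf2, a factor of resting T cells, at 0.561.

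Within each lung, most of the 9 genes were higher in Ccr7-positive than in Ccr7-negative Foxp3-negative cells. In the tumor lung 7 were higher and 0 lower by 1.5-fold, where 1.35% of 7093 genes were higher and 9.76% lower. In the normal lung 8 were higher and 1 lower, where 3.15% of 7041 genes were higher and 13.5% lower. The minimum level that those background genes met was passed by 8 of the 9 genes in each lung, all but Ampd1, and of these 8, 6 were higher in the tumor lung and 7 higher and 1 lower in the normal lung. With scaling by the median of gene ratios in place of total UMIs, those shares were 2.45% and 7.33% in the tumor lung and 5.81% and 8.72% in the normal lung, and the counts of the 9 genes were the same. Ratios of Ccr7-positive over Ccr7-negative cells were 2.39 (1.68 to 3.53) and 2.26 (1.57 to 3.34) for Sox4 in the tumor and the normal lung, and 1.89 and 2.08 for Itm2a. For Igfbp4 they were 1.89 (1.82 to 1.96) and 2.92 (2.73 to 3.12). In the tumor lung Tsc22d1, at the 1.08 given above, and Dtx1, at 1.23 (1.08 to 1.40), stayed within 1.5-fold. Dtx1 was the one gene lower in the Ccr7-positive class of the normal lung, at 0.403 (0.363 to 0.448). Because 5 and 6 of the 11 naive markers were also higher in the Ccr7-positive class, and 13 of 14 and 12 of 13 measured effector genes lower, the 2 classes differ in much more than the 9 genes. The naive markers include Ccr7 itself, which is higher there because it defines the classes. These counts rest on a split by Ccr7 alone.

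In Foxp3-positive cells all 9 genes were lower in the tumor lung by 1.5-fold, where 8.97% of 7321 genes were lower and 23.8% higher. Of the 9, 8 passed the minimum level. Their median log2 ratio was -1.77, against 0.17 over all 7321 genes, and with scaling by the median of gene ratios, which sets that median to 0.00, it was -1.94 and the shares of all genes became 14.1% lower and 17.4% higher. Sox4 was at 2.11 CPM (1.12 to 3.61, from 13 UMIs) in the tumor lung and 22.2 CPM (13.6 to 34.3, from 20 UMIs) in the normal lung, a ratio of 0.0950 (0.0434 to 0.201). A Sox4 UMI was found in 12 of 1147 Foxp3-positive cells of the tumor lung and 16 of 206 of the normal lung. Itm2a stood at 50.01 and 109 CPM (ratio 0.459), Igfbp4 at 121 and 336 CPM (0.361), Actn1 at 44.3 and 151 CPM (0.293) and Dtx1 at 25.2 and 97.8 CPM (0.257). The intervals of Myb (0.334 to 1.08) and Drosha (0.350 to 1.05) include 1, and Ampd1 rests on 10 and 6 UMIs.

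Markers of resting and of activated cells differed in the same comparison. All 11 naive markers were lower in the tumor lung, among them Klf2 at 0.186 and Tcf7 at 0.262, and all 14 effector and activation genes higher, among them Tnfrsf9 at 9.63 and Cxcr3 at 5.52. Of 5 measured cycling genes, 4 were higher. The lower levels of the 9 genes went with a lower share of Ccr7-positive cells, 401 of 1147 in the tumor lung and 175 of 206 in the normal lung. Fewer cells of a kind and less RNA per cell cannot be told apart in these sums. Several marker lists of other cells also stood higher in Foxp3-positive cells of the tumor lung. The 6 B cell markers summed to 655 CPM there and 317 CPM in the normal lung, of which Cd74 made 262 and 37.8 CPM, with 1 and 2 of 6 at 0. The 6 epithelial and tumor markers summed to 37.7 and 3.33 CPM, with 2 and 4 of 6 at 0, and Epcam in this list had 197 and 2 UMIs. The 5 markers of NK cells, innate lymphoid cells and gamma delta T cells summed to 241 and 140 CPM, with 2 of 5 at 0 in each lung, most of it Gata3, which CD4 T cells also express. The 5 endothelial and fibroblast markers went the other way, at 53.9 and 121 CPM, with 4 of 5 at 0 in each lung. All of that sum was Pecam1, which is also on the list of emigrant-linked genes. Their part in the lower levels of the 9 genes was not tested. Among the Foxp3-positive Ccr7-positive cells alone, a split made after seeing the data, 0 of the 9 genes were higher and 7 lower, 6 of the latter among the 8 genes that passed the minimum level, where 22.2% of 7297 genes were higher and 8.33% lower. There Sox4 stood at 0.205 (0.0937 to 0.433), Tsc22d1 at 0.263, Dtx1 at 0.383 and Actn1 at 0.472, while Igfbp4 stood at 0.747 (0.650 to 0.861) and Myb at 0.768. In that subclass 10 of 11 naive markers were also lower and 13 of 13 measured effector genes higher. Foxp3-positive Ccr7-negative cells held 0 Sox4 UMIs in both lungs, 0 of 746 cells in the tumor lung, which allows a share of up to 0.402% of cells with a UMI by 3 counts of the total and 0.493% by the upper Clopper-Pearson bound, and 0 of 31 in the normal lung.

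Foxp3-positive cells were then set against the Ccr7-positive Foxp3-negative cells of their own library, where the difference between the lungs was not tested. In the tumor lung all 9 genes were lower in Foxp3-positive cells, where 8.69% of 7321 genes were lower and 29% higher, and in the normal lung 6 were lower, where 6.02% of 6945 genes were lower and 13.8% higher. The minimum level was passed by 7 of the 9 genes in the tumor lung and by all 9 in the normal lung. With scaling by the median of gene ratios these shares were 15.5% and 18.6%, and 8.44% and 10.3%, with the same counts of the 9 genes. For Sox4 the ratio of Foxp3-positive over Ccr7-positive Foxp3-negative cells was 0.120 (0.0633 to 0.208) in the tumor lung and 0.783 (0.475 to 1.22) in the normal lung. For Tsc22d1 it was 0.273 and 0.721, and for Dtx1 0.318 and 1.34. Igfbp4 was low in both, at 0.0867 and 0.311. These ratios share the Foxp3-positive cells with the comparison between the lungs and are not separate evidence.

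Whether the 9 genes mark the same cells was read from co-detection in Ccr7-positive cells thinned to 2417 UMIs, which left 4675 cells of the tumor lung and 5628 of the normal lung. For each of the 36 pairs, the number of cells with both genes was set against the product of their shares. Sox4 and Itm2a were found together in 85 tumor cells where 61.5 were expected, a ratio of 1.38 (1.10 to 1.71), and in 177 normal cells where 114 were expected, a ratio of 1.55 (1.33 to 1.80). Put as shares, an Itm2a UMI was in 47.2% of tumor cells with Sox4 and 33.7% of those without it, and in 51.8% and 32.2% in the normal lung. Sox4 and Myb were at 2.21 (1.47 to 3.19) and 1.44 (1.05 to 1.95), Itm2a and Myb at 1.25 and 1.19, and Itm2a and Drosha at 1.31 and 1.26, each with an interval above 1 in both libraries.

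**Figure D3:**
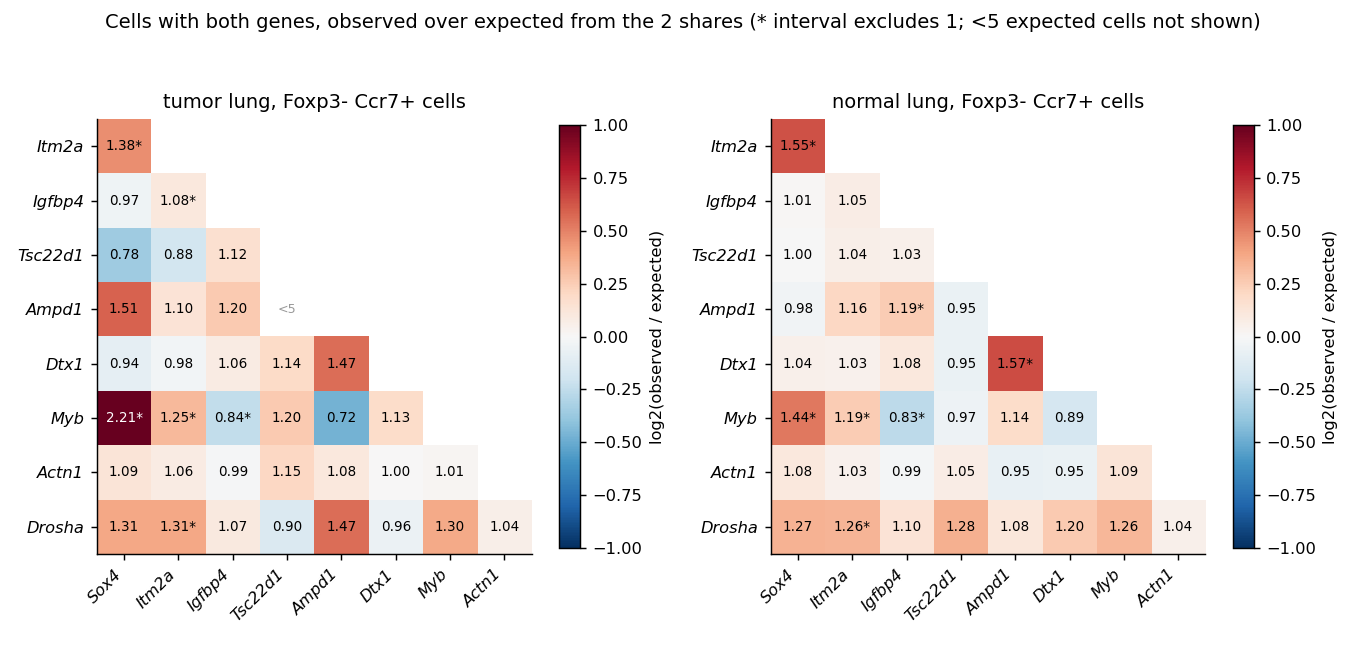
Cells with both genes of a pair over the number expected from the 2 single shares, in thinned Ccr7-positive cells of the tumor lung (left) and the normal lung (right), as numbers and as colour on a log2 scale that ends at 2-fold. Sox4 with Itm2a stood at 1.38 and 1.55 and Sox4 with Myb at 2.21 and 1.44, while Igfbp4 with Myb stood at 0.845 and 0.832.

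Igfbp4 gave other values. Its co-detection with Sox4 was at 0.972 (0.811 to 1.15) in the tumor lung and 1.01 in the normal lung, and with Myb it was below expectation in both, at 0.845 (0.733 to 0.969) and 0.832 (0.736 to 0.938). A Myb UMI was in 5.95% of tumor cells with Igfbp4 and 10.1% of those without it. Tsc22d1 and Sox4, the pair that was lower in the tumor lung, stood at 0.782 (0.254 to 1.83) in the tumor lung and 0.996 (0.631 to 1.49) in the normal lung, with intervals that include 1. Of the pairs with at least 5 expected cells, 35 in the tumor lung and 36 in the normal lung, the median ratio was 1.08 and 1.05, with an interval above 1 for 5 and 6 pairs and below 1 for 1 pair in each. Cells with many of the genes were more frequent than under independent detection, with 56 tumor cells holding at least 5 of the 9 where 35.1 were expected and 96 normal cells where 60.5 were expected. At least 6 were found in 7 tumor cells (2.55 expected) and 15 normal cells (5.32 expected). Such an excess was not particular to the Ccr7-positive class. Among thinned Ccr7-negative cells, at least 5 were found in 6 tumor cells (0.967 expected) and 6 normal cells (0.763 expected). Among thinned Foxp3-positive cells, at least 3 were found in 20 tumor cells (4.41 expected) and 26 normal cells (17.9 expected).

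**Figure D4:**
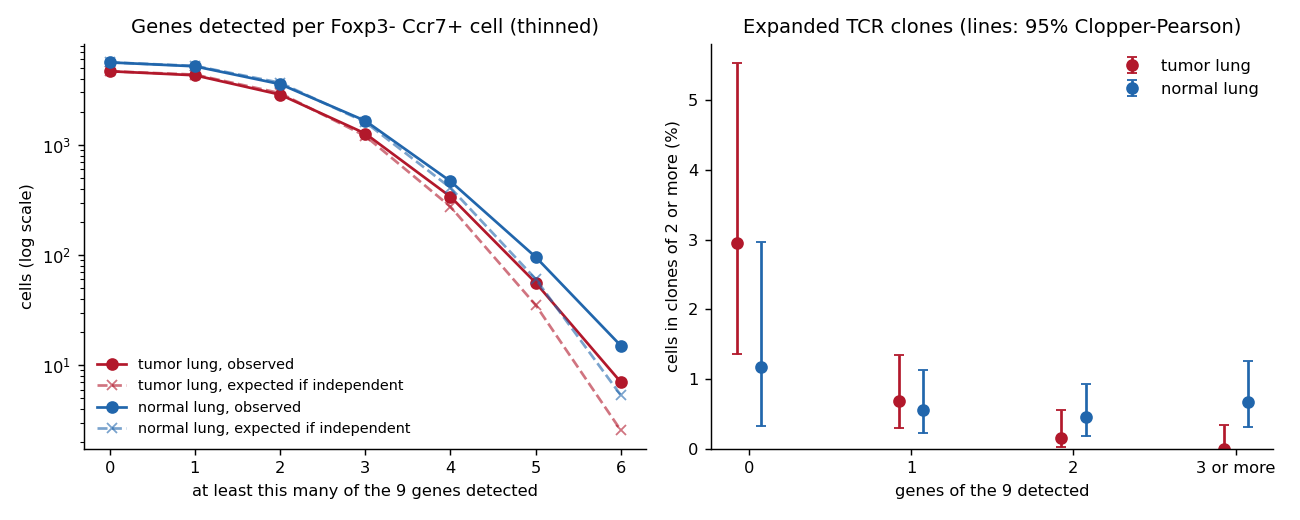
Left, thinned Ccr7-positive cells (y axis, log scale) with at least the given number of the 9 genes (x axis), observed and expected if genes were detected independently, down to 1 expected cell. Right, share of thinned Ccr7-positive cells in clones of at least 2 cells (y axis, 95% Clopper-Pearson intervals) by number of genes detected, falling from 2.95% to 0% in the tumor lung and lying between 0.455% and 1.17% in the normal lung.

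The receptor tables are not among the values used to choose the genes. A clone was the same set of productive alpha and beta CDR3 sequences within a library, and clones of at least 2 cells were called expanded. Cells of 1 clone share that call and are not independent draws, so the intervals of these shares are on the narrow side. In Ccr7-positive cells of the tumor lung, 9 of 305 cells with none of the 9 genes were in expanded clones, 2.95% (1.36 to 5.53), then 8 of 1173 with 1 gene, 2 of 1295 with 2 genes and 0 of 1070 with 3 or more. The limit that such a count of 0 allows, 3 counts of the total, is 0.280%, and the upper Clopper-Pearson bound is 0.344%. In the normal lung the shares were 1.17% (0.320 to 2.97), 0.551%, 0.455% and 0.669% (0.306 to 1.27), with intervals that overlap throughout. These shares are from thinned cells. With all UMIs, and so with the cells too shallow to thin, they were 6.18% (3.12 to 10.8), 4.40%, 2.34% and 1.17% (0.770 to 1.69) in the normal lung, where the first and the last interval do not overlap, and 2.84% (0.778 to 7.10), 1.07%, 0.472% and 0.107% (0.0129 to 0.385) in the tumor lung. By single gene in thinned cells, 0 of 2828 tumor cells with an Igfbp4 UMI were in expanded clones, with a limit of 0.106% and an upper Clopper-Pearson bound of 0.130%, while 19 of 1015 without one were, 1.87% (1.13 to 2.91). In the normal lung these were 14 of 2980 and 13 of 1517. Sox4-positive cells held 0 expanded of 144 in the tumor lung, with a limit of 2.08% and an upper bound of 2.53%, and 1 of 285 in the normal lung, too few to set apart from the other cells. Regulatory cells without a captured Foxp3 UMI may be in this class. Of 5 measured regulatory-cell genes, 4 in the tumor and 3 in the normal lung were lower in cells with 3 or more genes than with none. Over all kept Foxp3-positive cells, 30.7% and 5.96% were in expanded clones. The part of such cells was not tested.

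Low-depth cells of the normal lung stood apart. Among Ccr7-positive cells below 2417 UMIs, which the thinning leaves out, 83 of 312 cells in the normal lung were in expanded clones, 26.6% (21.8 to 31.9), of 48 clones with at most 3 cells, and 0 of 96 in the tumor lung. Their part in the other results was not tested, and the thinned values do not hold them. Counting clones by the beta chain alone gave 1.02% for tumor cells with 3 or more of the genes and 4.91% for those with none, and 2.72% and 2.76% in the normal lung. By the beta chain alone, tumor cells with an Igfbp4 UMI were also found in expanded clones, 27 of 3149, against 35 of 1145 without one. The share of cells with 2 productive alpha chains ran from 13.1% with none of the genes to 12.2% with 3 or more in the tumor lung and from 9.06% to 10.6% in the normal lung, with overlapping intervals.

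Other genes were then compared between thinned Ccr7-positive cells with and without each of the 9, and the rest of the 9 stayed in the ranking. Cd24a was among the 3 genes most like both Sox4 and Itm2a, of 6248 genes ranked by the smaller of the ratios in the 2 libraries. It was 2.39-fold (1.28 to 4.15) higher in Sox4-positive tumor cells and 4.25-fold (2.80 to 6.29) higher in Sox4-positive normal cells, and 2.29-fold (1.66 to 3.18) and 2.25-fold (1.62 to 3.13) higher in Itm2a-positive cells. The other 2 for Sox4 were A530021J07Rik (3.01 and 2.61) and Gm39469 (2.36 and 2.88). They rest on 10 and 5 UMIs in Sox4-positive tumor cells, and the tumor interval of Gm39469, 0.735 to 5.85, includes 1. For Itm2a the other 2 were the lactate transporter gene Slc16a3 (2.04 and 2.39) and Sox4 itself (1.87 and 2.40). The Sox4 value comes from the same cells as its co-detection with Itm2a and is not separate evidence. In Igfbp4-positive cells Cd24a stood at 0.830 (0.587 to 1.19) and 1.21 (0.852 to 1.75). The genes most like Igfbp4 were Ggt1 (2.25 and 2.49), Tspan9 (2.05 and 4.40) and Ggt5 (1.87 and 1.92), of which Ggt1 and Ggt5 encode gamma-glutamyltransferase family proteins. For Myb the leading gene was Ly6c2 (3.77 and 2.88), which has a near-identical neighbour in Ly6c1 whose reads may be shared, and for Dtx1 it was S100a6 (2.58 and 1.90), a calcium-binding protein of activated cells.

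**Figure D5:**
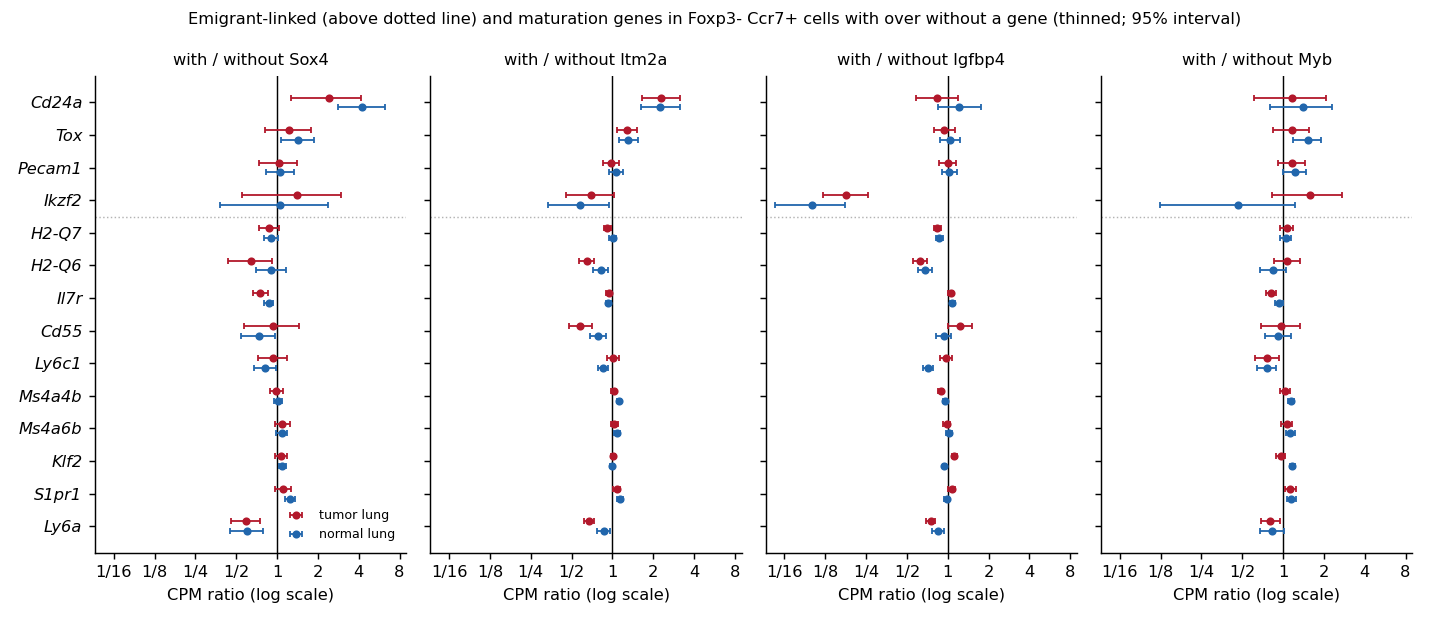
Ratio of CPM (x axis, log scale, 95% counting intervals) of 4 emigrant-linked genes and 10 maturation genes (y axis) between thinned Ccr7-positive cells with and without a UMI of Sox4, Itm2a, Igfbp4 or Myb in the tumor lung (red) and the normal lung (blue). Cd24a lies at 2.39 and 4.25 for Sox4 and at 2.29 and 2.25 for Itm2a, Ikzf2 lies at 0.178 and 0.0991 for Igfbp4, and Ly6a lies below 1 in each panel.

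Of the genes that go up with maturation, some were lower in Sox4-positive or Itm2a-positive cells and others were not. Ly6a stood at 0.589 (0.456 to 0.749) in the tumor lung and 0.603 (0.452 to 0.790) in the normal lung, and Il7r, the receptor for the survival cytokine IL-7, at 0.754 (0.662 to 0.857) and 0.869 (0.801 to 0.940). Cd55, which shields cells from complement, stood at 0.580 (0.475 to 0.705) and 0.784 (0.687 to 0.893) in Itm2a-positive cells. The class I genes H2-Q6 and H2-Q7 are near-identical copies whose reads may be shared, and H2-Q6 stood at 0.647 (0.567 to 0.736) and 0.818 in Itm2a-positive cells. S1pr1, the receptor for exit from lymphoid organs, was slightly higher in Itm2a-positive cells, at 1.08 (1.02 to 1.14) and 1.14 (1.09 to 1.20). Tox, a thymocyte factor, stood at 1.29 (1.09 to 1.51) and 1.31 (1.12 to 1.53) in Itm2a-positive cells. Ikzf2 was far lower in Igfbp4-positive cells, at 0.178 (0.121 to 0.258) and 0.0991 (0.0530 to 0.174).

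Cells with 3 or more of the 9 genes, 1271 in the tumor lung and 1659 in the normal lung, were compared with the 377 and 443 cells with none. Among the genes lowest in them in both libraries were genes of effector cells, S100a6, Ccl5 and Nkg7, and Ikzf2, which regulatory cells carry. S100a6 was at 3.91 CPM in the tumor cells with 3 or more and 153 CPM in those with none, and at 2.74 and 121 CPM in the normal lung. Ccl5 was at 1.30 and 133 CPM in the tumor lung and 14.2 and 193 CPM in the normal lung. Nkg7, Bhlhe40, Ahnak, Anxa2, Ikzf2, Bcl2a1d, Rora and Itgb1 complete the 10 lowest. Of 8 measured effector genes, 5 were lower in each library and 0 higher. The 10 genes that were highest, led by P2ry14 (4.75 and 2.94), Dclre1c (2.60 and 3.05) and Ggt5 (2.15 and 2.85), rest on few UMIs in the cells with none, 3 and 7 for P2ry14, and 0 of the 10 were the same when all UMIs were used in place of thinned ones. Of the emigrant-linked list, 4 genes were measured here and 1 was higher and 1 lower in each library, with Ikzf2 the lower one.

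Markers of cells other than CD4 T cells were then summed in the Ccr7-positive class. In Ccr7-positive cells of the tumor lung the 6 myeloid markers summed to 6.35 CPM with 3 of 6 at 0, the 6 epithelial and tumor markers to 6.44 CPM, the 2 CD8 markers to 14.1 CPM and the 6 B cell markers to 160 CPM, against 3388 CPM for the 7 T cell markers. In Sox4-positive over Sox4-negative Ccr7-positive cells the B cell list stood at 0.823 (0.621 to 1.07) in the tumor lung and 1.00 in the normal lung, and the cycling list at 1.19 (0.818 to 1.68) and 1.30 (1.02 to 1.63). The part of these cells in the results was not tested.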

How the data were processed

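Each deposited expression matrix holds whole-number UMI counts for genes by barcodes, not normalized, made by the authors with Cell Ranger on mm10 per the submitters' processing notes, version 3.1.0 per the file headers. The deposited receptor tables list contigs with chain, CDR3 and productivity. Cells needed at least 500 genes, under 10% mitochondrial UMIs, at most 2 productive alpha chains and 1 beta chain, which left out 120 and 61 cells for genes or mitochondria and 533 and 602 for surplus chains in the tumor and normal library. No doublet caller was run. Totals were 35633167 and 31697386 UMIs. Counts were summed per library and class. Ratio intervals are exact given the summed count, level intervals exact Poisson, and shares Clopper-Pearson. A count of 0 was set to 3 in a ratio, with no ratio where both counts were at most 3. For shares and co-detection, every cell was reduced at random to 2417 UMIs (in the library of lower depth, 10% of kept cells lie below it), leaving out 393 and 708 kept cells. With 1 library per group no test was made. Genes other than the 9 were named from lists, as the 3 most like a gene, or as the 10 highest and lowest, among genes with at least 50 UMIs. The 9 genes and the lists were chosen with earlier results of these data known. An alternative split of the classes by another marker, and that marker's place in 2 lists, are not reported here. Ratios and co-detection were tested on simulated data. Python 3.11.15, numpy 2.4.6, scipy 1.17.1 and pandas 2.3.3 were used. Coordinates and sequences are RefSeq's, on GRCm38.p6.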

Additional observations from a re-analysis of the deposited data

Results flagged for a closer look

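The ratio of the tumor over the normal lung went in opposite directions between cell classes for 2 of the 9 genes, with intervals on opposite sides of 1. For Igfbp4 it was 1.29 in Foxp3-negative Ccr7-positive cells and 2.0 in Foxp3-negative Ccr7-negative cells, but 0.361 in Foxp3-positive cells. For Dtx1 it was 1.09 in Foxp3-negative Ccr7-positive cells, 0.357 in Foxp3-negative Ccr7-negative cells and 0.257 in Foxp3-positive cells. With 1 library per tissue these differences were not tested.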

How the results depend on the processing

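No paired analysis was possible because each tissue has 1 gene expression library. Of 670 values of single genes under the alternatives, 667 kept their sign or were not called and 3 reversed. With thinned cells, 1 gene was higher and 2 lower in the tumor lung among Ccr7-negative cells, where 8.07% of all genes were higher and 7.81% lower. At a 2-fold threshold, 1 gene was lower in Ccr7-positive and 1 in Ccr7-negative cells. The share of all genes at that threshold is not given here, so these 2 counts have no background. Among Foxp3-positive Ccr7-negative cells, a split chosen after seeing the data that leaves 31 normal cells, 1 gene was higher and 4 lower. Of 7288 genes at the minimum level, 1951 were higher and 1476 lower there. Of the 9, 4 passed that level, with 1 higher and 2 lower, and 2 had no ratio. Myb counts as lower only through the floor of 3 counts, on 25 tumor and 0 normal UMIs. Itm2a (0.48), Actn1 (1.25) and Drosha (0.53) reversed on the log2 scale. Itm2a rests on 125 and 3 UMIs, with an interval of the ratio of 0.466 to 6.86. By beta chain alone, 1.02% of tumor and 2.72% of normal cells with 3 or more genes were in expanded clones, and 4.91% and 2.76% of those with none. With all UMIs, which bring in the low-depth cells, 6.18% of normal cells with none were, and 1.17% of those with 3 or more. Of the 10 highest other genes, 3 were shared at 2 or more of the 9 genes and 0 with all UMIs, and of the 10 lowest, 3 with all UMIs. Without the minimum level, 11.5% of all genes were higher and 6.43% lower in Ccr7-positive cells. In Ccr7-negative cells these shares were 13.8% and 10.1%, and in Foxp3-positive cells 25.2% and 19.0%. The causes were not tested. The other counts of the 9 genes between the tumor and the normal lung stayed within 1.5 times. Depth limits Ampd1, Sox4 and Tsc22d1 in Foxp3-positive and effector cells, where each of them has at most 33 UMIs per library. Myb was also limited, with 16 UMIs in normal Foxp3-positive cells. In the effector cells it had 8 UMIs in the tumor lung and 5 in the normal lung.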
